A study of Saccharomyces cerevisiae with 6 samples.

Results

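Messenger RNA of 10 budding yeast genes for glycerol synthesis, glycerol use and glycerol transport was followed across 6 conditions. The genes were taken by name: GPD1, GPD2, GPP1 and GPP2 for synthesis, GUT1, GUT2 and DAK1 for use, and FPS1, STL1 and AQY3 for transport. Each had 1 probe set on the array, and they made up 10 of the 5656 genes measured. All 10 entered the tests, but STL1 did so through only 2 arrays that lay just above the lowest level treated as measurable.

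Glycerol is made from a glycolytic intermediate. Glycerol-3-phosphate dehydrogenase reduces dihydroxyacetone phosphate with NADH, and a phosphatase then releases glycerol. Yeast relies on this route to dispose of surplus NADH when respiration cannot, and glycerol is also the solute that the cell accumulates in osmotic stress. Use runs the other way: a kinase phosphorylates glycerol, and a mitochondrial dehydrogenase passes the electrons to the respiratory chain. That dehydrogenase, working with the cytosolic one, also forms a shuttle that carries electrons from cytosolic NADH into respiration.

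All cultures carried the same xylose pathway. The parent, YSX3, is a MATalpha strain with 3 integrated genes of Pichia stipitis, XYL1 (leu2::LEU2-XYL1), XYL2 (ura3::URA3-XYL2) and XYL3 (Ty3::NEO-XYL3), for a xylose reductase, a xylitol dehydrogenase and a xylulokinase, in that order. There were 6 Affymetrix arrays with 1 array per condition, namely glucose and xylose in each of 3 backgrounds. Aerobic YSX3 grew in YP medium with 20 g/L sugar, 200 ml in a 1000 ml flask at 300 rpm, and was taken at an OD600 of 1. Oxygen-limited YSX3 grew in YP medium with 40 g/L sugar, 50 ml in a 125 ml flask at 100 rpm, and was taken at an OD600 of 30, so that oxygen supply, sugar concentration and cell density cannot be told apart. The petite background is a respiration-deficient mutant, FPL-YSX3P. Its glucose culture was taken at an OD600 of 1, and its xylose sample consisted of glucose-grown cells kept for 24 hours in xylose medium, a transfer rather than growth on xylose from the start. Whether the mutant is 1 clone is not given in the sources used here.

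Values are linear intensities, scaled so that every array has the same median, with values below 61.7 set to that floor. Median deposited intensity was 0.31 to 0.38 higher on the log2 scale in the oxygen-limited and petite arrays than in the aerobic glucose array, so comparisons between backgrounds lean on this scaling more than comparisons between sugars do. On each array 88.0% to 90.5% of genes exceeded the floor. The labels were checked on marker genes. The mitochondrially encoded COX1 read 963 and 1393 in aerobic cells and lay at the floor on both petite arrays. COB and ATP6 lay at the floor there too, but also on the oxygen-limited glucose array, and nowhere exceeded 134 and 84.3. COX2 and VAR1 were at the floor on every array, and COX3 read higher on the petite than on the aerobic arrays. The alpha-cell receptor gene STE3 lay above the floor on all 6 arrays, between 740 and 1705. So did the alpha-factor genes, but MF(ALPHA)2 fell by 2.95 on xylose (limma adjusted p = 0.0318). MF(ALPHA)1 read 259 on petite xylose and at least 2393 on the other arrays. The a-cell genes STE2 and BAR1 did not exceed 102 and 83.3, whereas the a-factor genes MFA1 and MFA2 were above the floor on all arrays. COX5B, a subunit gene induced when oxygen is low, rose under oxygen limitation by 2.04 (limma adjusted p = 0.0165), from the floor on aerobic glucose. ANB1, another hypoxic gene, fell by 1.55 (limma adjusted p = 0.0306), and DAN1 lay at the floor on all 4 arrays of that comparison. The hypoxic genes HEM13 and TIR1 were at 0.36 and 0.28 and did not pass (limma adjusted p = 0.497 and 0.544). CIT2 and DLD3, which the retrograde response raises when mitochondria fail, were not higher in the petite mutant as fitted. CIT2 read 1608 and 1388 on glucose and xylose in aerobic cells and 672 and 1341 in the mutant, and DLD3 read 825 and 408 against 242 and 135, with estimates of -0.65 and -1.68 (limma adjusted p = 0.543 and 0.123).

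With 1 array per condition, tests came from a single limma model with sugar and background as terms, fitted over 5462 genes with 2 residual degrees of freedom. The model takes the effect of sugar to be equal in the 3 backgrounds. Its p-values set each mean difference against the departure from that pattern, not against the spread between repeated cultures. Differences within 1 pair of arrays are given as descriptions without a test.

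GUT2, of the pathway of glycerol use, rose 4.76-fold on xylose and was the 1 glycerol gene that passed the test of sugar. The kinase gene GUT1 had an estimate 2.83-fold higher and the phosphatase gene GPP1 one 1.95-fold lower, each with the same sign in 3 of 3 pairs, and neither passed. Of the 10 genes 1 rose, 0 fell and 9 did not pass, against 0.677% of all genes tested called higher and 0.0732% called lower. At an unadjusted limma p under 0.05 the glycerol genes gave 3 higher and 2 lower, and all genes 658 and 535. The median difference over the 10 genes was -0.01 on the log2 scale, next to -0.03 for all genes tested, with 5 members above 0 and 5 below.

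GUT2 encodes the mitochondrial glycerol-3-phosphate dehydrogenase, which feeds electrons into the respiratory chain. Its intensity was 171 on glucose and 1098 on xylose in aerobic culture, 143 and 728 under oxygen limitation, and 201.2 and 665 in the petite mutant. Every xylose value lay above every glucose value. The fitted log2 difference was 2.25 ± 0.22 (SE) with an adjusted p of 0.0337 in limma and the same sign in 3 of 3 pairs, the 30th highest of the 5462 genes. The differences within pairs were 2.68 in aerobic cells, 2.35 under oxygen limitation and 1.72 in the petite mutant. The call did not hold in limma without the oxygen-limited pair (2.20, adjusted p = 0.20) or without the petite pair (2.51, adjusted p = 0.0535), nor with the floor at the 40th percentile (adjusted p = 0.10) or with no filter on low values (adjusted p = 0.221).

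GUT1, the glycerol kinase that opens the pathway of use, had the same direction. It read 135 on glucose and 310 on xylose in aerobic culture, 124 and 521 under oxygen limitation, and 125 and 293 in the petite mutant. The 3 glucose values lay within 0.13 of each other on the log2 scale, and all xylose values were above them. Its difference of 1.50 ± 0.23 (SE) did not pass (adjusted p = 0.0682 in limma), though its sign was shared by 3 of 3 pairs. Its 4.21-fold difference under oxygen limitation exceeded the 2.30-fold in aerobic and the 2.35-fold in petite cells, a contrast between single pairs that has no test.

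DAK1 phosphorylates dihydroxyacetone, the intermediate of an alternative route of glycerol use through glycerol dehydrogenase. It read 522 and 583 on glucose and xylose in aerobic culture, 621 and 560 under oxygen limitation, and 539 and 367 in the petite mutant. Apart from the low petite xylose value, neighbouring levels lay closer together than the moderated residual SD of the gene, 0.23 on the log2 scale. The sugar difference was -0.18 ± 0.19 (SE; limma adjusted p = 0.597).

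**Figure D1:**
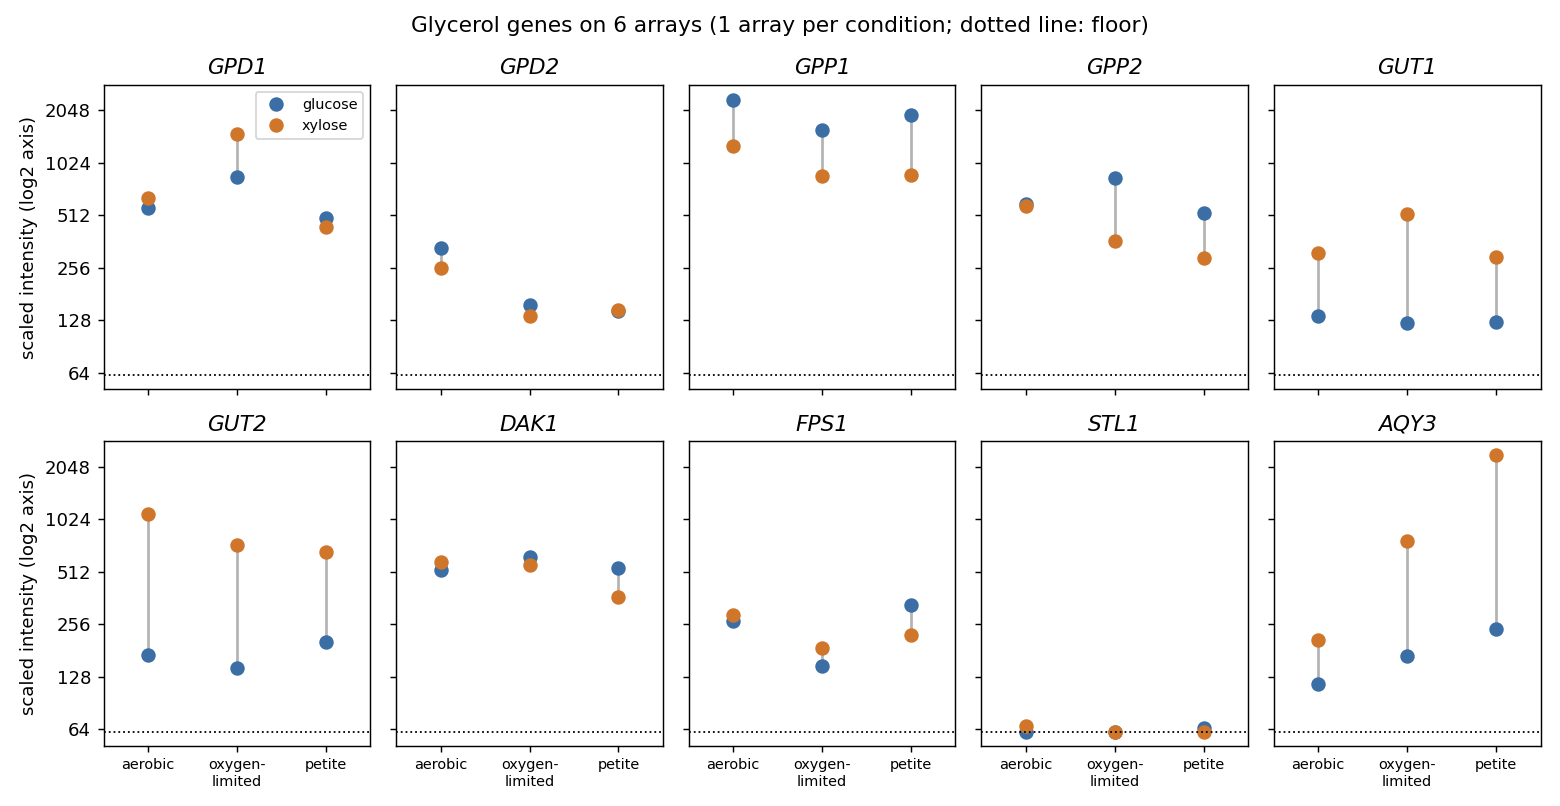
Scaled intensity (log2 axis) of each glycerol gene by background, with glucose in blue and xylose in orange, 1 array per point and the floor of 61.7 as a dotted line; grey lines join the sugars of a background. GUT1 and GUT2 lie higher on xylose in every background, GPP1 lies lower, GPD2 lies higher in the aerobic pair than in the others, and STL1 sits at or just above the floor.

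The estimates of the phosphatase genes had the opposite sign. GPP1, one of a pair of near-identical glycerol-3-phosphate phosphatases, read 2355 on glucose and 1277 on xylose in aerobic culture, 1566 and 858 under oxygen limitation, and 1925 and 873 in the petite mutant. All 3 xylose values lay below all 3 glucose values. The difference was -0.96 ± 0.15 (SE), or 1.95-fold lower, and missed the threshold (limma adjusted p = 0.0763, lower in 3 of 3 pairs). It passed in 1 of 11 alternatives, with the trend along the probe set numbers removed, at -1.01 (limma adjusted p = 0.047). GUT1 passed in 2 of 11, there at 1.51 (limma adjusted p = 0.047) and with the floor at the 10th percentile.

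GPP2, the paralog associated with osmotic stress, differed from GPP1 in aerobic cells. It read 593 on glucose and 578 on xylose there, 835 and 365 under oxygen limitation, and 530 and 292 in the petite mutant. The sugars were thus level in aerobic culture and apart in the other backgrounds, by -1.20 and -0.86 on the log2 scale. Over the 3 pairs the difference was -0.70 ± 0.25 (SE; limma adjusted p = 0.211). Because the coding sequences of these paralogs are so alike, their probe sets may share some signal, which was not tested.

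The dehydrogenases of synthesis did not pass on xylose. GPD1, the isoform induced by osmotic stress, was at 0.28 ± 0.23 (SE; limma adjusted p = 0.507) with pair differences of 0.18, 0.82 and -0.17 in aerobic, oxygen-limited and petite cells. GPD2, the isoform tied to redox balance when oxygen is scarce, was at -0.19 ± 0.16 (SE; limma adjusted p = 0.518) with pair differences of -0.38, -0.20 and 0.02. The 95% confidence intervals, -0.30 to 0.85 for GPD1 and -0.58 to 0.21 for GPD2, both include 0.

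Among the transport genes AQY3 had the widest range over the 6 arrays, 4.35 on the log2 scale, next to 1.16 for FPS1 and 1.08 for the median of all genes tested. AQY3, a channel-like gene of the aquaporin family related to FPS1, read 117 on glucose and 207 on xylose in aerobic culture, 168 and 773 under oxygen limitation, and 240 and 2380 in the petite mutant. Xylose was higher in each pair, but the aerobic xylose value lay below the petite glucose value, so the sugars overlapped. The pair differences of 0.82, 2.20 and 3.31 on the log2 scale were unequal, and the residual SD of 0.88 was the widest of the 10 genes. The mean difference of 2.11 ± 0.46 (SE) ranked 37th of 5462 but did not pass (adjusted p = 0.118 in limma, positive in 3 of 3 pairs). It passed in 1 of 11 alternatives, without the aerobic pair, at 2.76 (limma adjusted p = 0.0487). Without the oxygen-limited pair it was 2.07 (limma adjusted p = 0.46) and without the petite pair 1.51 (limma adjusted p = 0.244).

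FPS1, the glycerol export channel that closes in osmotic stress, was at -0.04 ± 0.22 (SE; limma adjusted p = 0.934) with pair differences of 0.12, 0.34 and -0.57. STL1 is a glycerol and proton symporter that glucose represses. It read at or below 67.1 on every array and exceeded the floor only on aerobic xylose, at 67.1, and petite glucose, at 65.0. At this signal no difference between sugars was detectable for STL1.

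**Figure D2:**
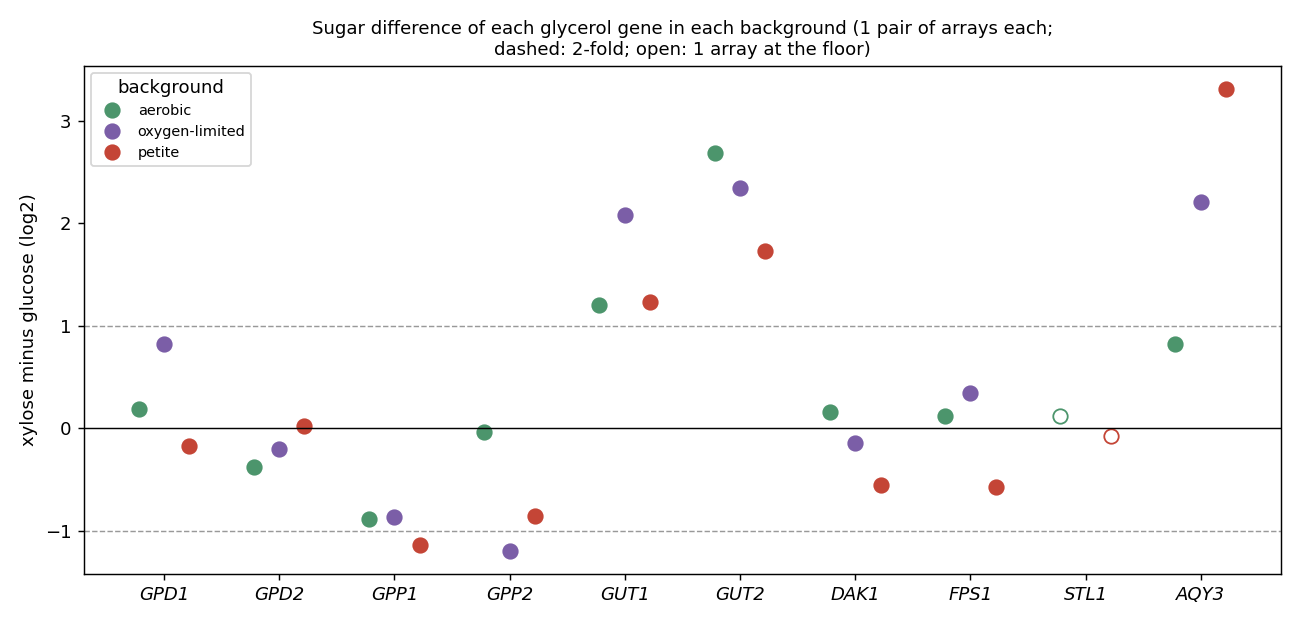
Difference of each glycerol gene between the xylose and the glucose array (log2) in aerobic, oxygen-limited and petite cells, 1 pair of arrays per point, with dashed lines at 2-fold and open points where 1 array lay at the floor. GUT2 falls from 2.68 to 1.72 across the backgrounds, AQY3 runs from 0.82 to 3.31, and GPP1 stays between -0.87 and -1.14.

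In single pairs, GUT1 and GUT2 were the 2 glycerol genes at least 2-fold higher on xylose in aerobic culture, where 3.13% of 5138 genes were, and 0 were 2-fold lower (2.1% of all genes). Under oxygen limitation GUT1, GUT2 and AQY3 made 3 of 9 comparable members, against 8.76% of 5217 genes, and GPP2 was the 1 member 2-fold lower (4.24%). In the petite mutant the same 3 genes were higher (5.76% of 5246 genes), and GPP1 was the 1 lower (5.28%). Where a gene had several probe sets, their differences varied with an SD of 0.20, 0.42 and 0.40 in these pairs. It comes from probe sets on the same 2 arrays and leaves out variation between cultures. Groups that did not overlap were seen for GUT1 and GUT2 upward, where 6.94% of all genes did so, and for GPP1 downward (3.63%).

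Under oxygen limitation GPD2, of glycerol synthesis, fell 2.01-fold relative to aerobic culture. The estimate of its isoform GPD1 was 1.87-fold higher and did not pass. Of the 10 genes 0 rose, 1 fell and 9 did not pass. Over all genes 8.04% were called higher and 15.9% lower, so 1 member in 10 is close to the background. The median of the 10 genes was -0.07, next to -0.08 for all genes.

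GPD2 read 332 on glucose and 255 on xylose in aerobic culture, and 155 and 135 under oxygen limitation. Both aerobic values lay above both oxygen-limited ones. The difference was -1.01 ± 0.19 (SE; limma adjusted p = 0.0273, lower in 2 of 2 pairs). On the values as deposited it was -0.65 and missed the threshold (limma adjusted p = 0.0582). It also missed it whenever 1 of the 4 arrays of the comparison was left out, with estimates from -1.15 to -0.86. Such fits leave 1 array in a group, and every gene lost its call in them. The loss there is therefore not particular to GPD2.

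GPD1 read 562 on glucose and 639 on xylose in aerobic culture, and 844 and 1488 under oxygen limitation. The oxygen-limited xylose array was the highest of all 6, followed by the oxygen-limited glucose array. The difference was 0.90 ± 0.28 (SE; adjusted p = 0.0696 in limma, positive in 2 of 2 pairs), with 1.50-fold on glucose and 2.33-fold on xylose. It passed in 2 of 14 alternatives, with quantile normalization, at 1.24 (limma adjusted p = 0.0393), and on the values as deposited, at 1.26 (limma adjusted p = 0.0317). Without the xylose oxygen-limited array it was 0.50 (limma adjusted p = 0.332).

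The other members did not pass. FPS1 read 265 and 289 in aerobic culture and 148 and 188 under oxygen limitation, a difference of -0.73 ± 0.27 (SE; limma adjusted p = 0.104, lower in 2 of 2 pairs). It was -0.38 on the values as deposited and -0.45 without the glucose oxygen-limited array. GPP1 was at -0.58 ± 0.18 (SE; limma adjusted p = 0.0742, lower in 2 of 2 pairs), but at -0.16 with quantile normalization and -0.23 on the values as deposited. AQY3 was at 1.21 ± 0.57 (SE; limma adjusted p = 0.169), made up of 0.52 on glucose and 1.90 on xylose. GUT2 was at -0.43 and GUT1 at 0.31, with limma adjusted p of 0.29 and 0.432. GPP2 was 1.41-fold higher on glucose and 1.58-fold lower on xylose, which averaged to -0.08, and DAK1 was at 0.10. Groups did not overlap for GPD1 upward, where 25.8% of all genes did so, and for GPD2 and FPS1 downward (36.8%).

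At 2-fold, GPD2 alone was lower on glucose (11.5% of 5292 genes) and 0 members were higher (4.5%). On xylose GPD1 and AQY3 were higher (9.36% of 5307 genes) and 0 were lower (15.4%). Differences of probe sets for 1 gene varied more here, with an SD of 0.73 on glucose and 0.66 on xylose.

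**Figure D3:**
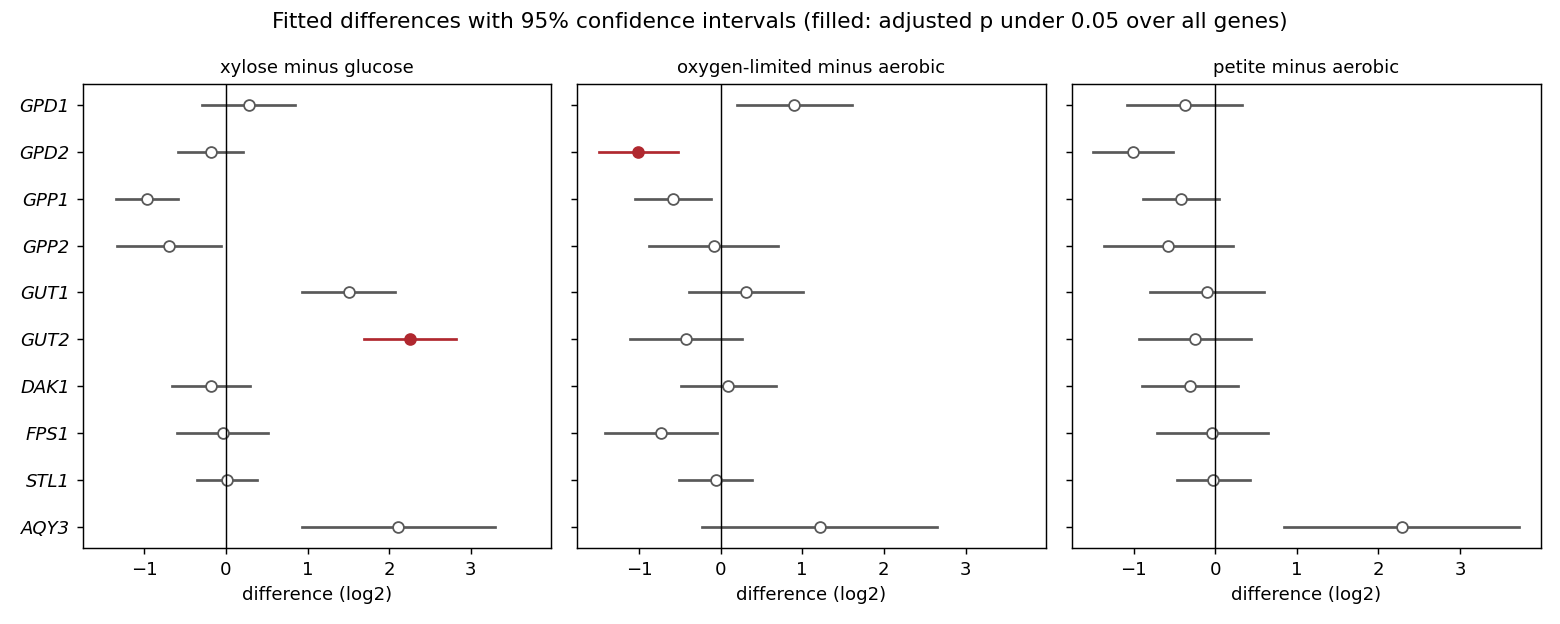
Fitted log2 difference of each glycerol gene with its 95% confidence interval in the sugar, oxygen and petite comparisons, with filled points where the limma adjusted p over all genes was under 0.05. GUT2 in the sugar comparison, at 2.25, and GPD2 in the oxygen comparison, at -1.01, are the filled points, and the interval of AQY3 is the widest in each panel.

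In the petite mutant no glycerol gene passed against the aerobic parent. Limma called 1 gene higher and 1 lower among 5462 (0.0183% each way), although 636 and 1211 had an unadjusted p under 0.05, among them AQY3 higher and GPD2 lower. The count for all genes depended on the processing. It was 559 with the floor at the 10th percentile and 363 with a variance trend in limma. It was 0 with quantile normalization, the floor at the 40th percentile, no filter on low values or the mean over probe sets. Because the aerobic arrays serve as the reference for both the oxygen and the petite comparison, the values of the 2 are only set side by side.

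AQY3 had the largest petite value of the 10 genes. It read 240 on glucose and 2380 on xylose in the petite mutant, against 117 and 207 in the parent, and the mutant was higher on both sugars. The difference was 2.28 ± 0.57 (SE), the 17th highest of 5462 genes, and did not pass (adjusted p = 0.0667 in limma, positive in 2 of 2 pairs). The petite mutant was 2.05-fold higher on glucose and 11.5-fold on xylose. On xylose the mutant cells had been transferred from glucose, whereas the parent grew on xylose. The 2 factors cannot be told apart there, and this pair enters the fitted difference. Without the xylose petite array the estimate was 1.38 (limma adjusted p = 0.239), and without the xylose aerobic array it was 1.32 (limma adjusted p = 0.308).

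GPD2 read 144 on glucose and 146 on xylose in the petite mutant, below both aerobic values and next to the oxygen-limited ones. Its difference of -1.01 ± 0.19 (SE; limma adjusted p = 0.0536, lower in 2 of 2 pairs) did not pass. It passed in 2 of 14 alternatives, with a lower floor, the 10th percentile (limma adjusted p = 0.0445), and with the probe set number trend removed (-0.99, limma adjusted p = 0.0436). Those fits called 559 and 531 of all genes, against 2 in the main fit, with the GPD2 estimate nearly unchanged. The 4 arrays outside aerobic culture lay between 135 and 155, closer to each other than the moderated residual SD of 0.19 at every step of the order.

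GPD1 read 492 and 437 in the petite mutant, below both aerobic values, with a difference of -0.37 ± 0.28 (SE; limma adjusted p = 0.387). GPP2 was at -0.57 ± 0.31 (SE; limma adjusted p = 0.25) and GPP1 at -0.42 ± 0.18 (SE; limma adjusted p = 0.176). DAK1, GUT2, GUT1, FPS1 and STL1 lay between -0.31 and -0.02, and the sign of GUT1, GUT2, FPS1 and STL1 turned on the values as deposited. The median over the 10 genes was -0.28 and over all genes -0.11, with 9 of 10 members below 0. The groups did not overlap for AQY3 upward (21.8% of all genes) or for GPD1, GPD2 and GPP2 downward (37.9%). At 2-fold, AQY3 was higher on glucose (4.72% of 5272 genes) and on xylose (8.44% of 5287), GPD2 was lower on glucose (5.05%), and 0 members were lower on xylose (13.5%). The corresponding SD between probe sets was 0.51 and 0.53.

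The order of the 6 levels set the members apart. For GUT2 it ran from aerobic xylose at 1098 through oxygen-limited xylose at 728 and petite xylose at 665 to petite, aerobic and oxygen-limited glucose at 201.2, 171 and 143. The middle pair of xylose values and the 3 glucose values did not differ from their neighbours beyond the moderated residual SD of 0.27. For GPD1 the order followed the background, with oxygen-limited xylose and glucose first, then the aerobic pair, then the petite pair, and the last 4 did not differ from their neighbours beyond 0.28. For AQY3, petite xylose stood 1.62 above oxygen-limited xylose, which stood 1.69 above the next level, petite glucose. The other 4 arrays did not differ from their neighbours beyond 0.57. Each SD used here rests in part on the same 6 values, so these orders are descriptions without a test. Over the 6 arrays AQY3 spanned 20.4-fold, wider than in all but 0.366% of the genes tested. GUT2 spanned 7.67-fold, GUT1 4.21-fold and DAK1 1.69-fold, the last a narrower range than in 74.5% of genes.

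Genes with the most alike profile were found by the root mean square distance between log2 values centred on each gene's mean, over the 6 arrays and among 4046 named nuclear genes above the floor on all of them. For GUT2 the closest was ALD4, the mitochondrial aldehyde dehydrogenase, at a distance of 0.12. On glucose ALD4 read 537, 400.2 and 640.2 in aerobic, oxygen-limited and petite cells, and on xylose 3950.0, 2217 and 1915. MPC3, part of the carrier that brings pyruvate into mitochondria, and OM14, an outer mitochondrial membrane protein, followed at 0.40 and 0.42. For GUT1 the nearest were GIS1, a transcription factor of nutrient limitation, at 0.19, the cytosolic malate dehydrogenase MDH2 at 0.22 and SNA2 at 0.22.

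AQY3 was nearest to HXT5, a hexose transporter gene expressed in slow growth, at 0.30. HXT5 read 116, 188, 251, 760, 292 and 1871 in the order aerobic, oxygen-limited and petite with glucose before xylose in each, and its petite xylose value was likewise the highest. LEE1 at 0.55 and the proline oxidase gene PUT1 at 0.60 came next. GPD2 was nearest to CBF5, the pseudouridine synthase of ribosomal RNA, at 0.09, SAP190, which associates with the phosphatase Sit4, at 0.11 and FAU1, a folate enzyme, at 0.12. All profiles share the same 6 arrays and their scaling, and some likeness is found for any gene among so many.

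**Figure D4:**
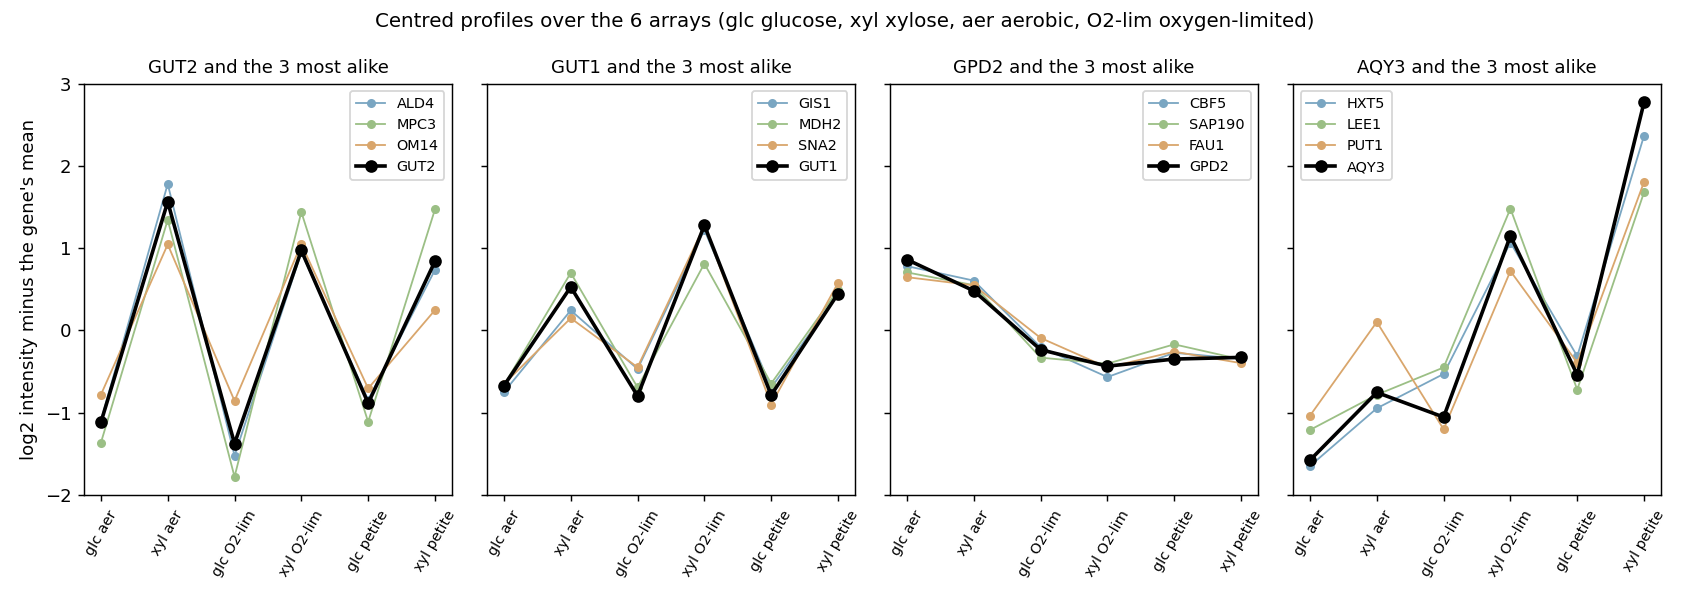
Log2 intensity minus the gene's mean over the 6 arrays for GUT2, GUT1, GPD2 and AQY3 (black) and, in colour, the 3 genes at the smallest distance from each, 1 array per point. ALD4 follows GUT2 at a distance of 0.12, and the lines of AQY3 and HXT5 both peak on petite xylose.

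Around the pathway, 5 lists of further genes were read in the same fit, 65 of 69 genes tested. Their counts stand against the shares called over all genes, which were 0.677% higher and 0.0732% lower on xylose, 8.04% and 15.9% under oxygen limitation, and 0.0183% each way in the petite comparison. Of 11 tested genes for neighbouring steps of glycerol and dihydroxyacetone metabolism, 1 rose and 0 fell on xylose, with a median of 0.05. It was GCY1, an aldo-keto reductase with glycerol dehydrogenase activity, which went from 156 to 902 in aerobic cells, 312 to 1150 under oxygen limitation and 319 to 967 in the petite mutant (2.01, adjusted p = 0.0415 in limma, positive in 3 of 3 pairs). The related reductase gene YPR1 was the lowest, at -0.69. DAK2, the second dihydroxyacetone kinase, lay between 121 and 213 on 5 arrays and at 914 on petite xylose, the array on which DAK1 was lowest. GUP1, a membrane protein linked to glycerol uptake, fell by 1.36 under oxygen limitation (limma adjusted p = 0.0188, lower in 2 of 2 pairs) and was the 1 of 11 to pass there. It was at -1.11 in the petite mutant (limma adjusted p = 0.0515).

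The NADH shuttle partners include NDE1 and NDE2, the external NADH dehydrogenases that share with GUT2 the task of oxidising cytosolic NADH. Of 9 tested, 1 rose and 0 fell on xylose, with a median of 0.88: MDH2 rose by 1.34 (limma adjusted p = 0.043). The internal dehydrogenase gene NDI1 had the highest estimate, 1.50, and the mitochondrial aspartate aminotransferase gene AAT1 the lowest, -0.94, both short of the threshold. NDE1 was at 0.96 and NDE2 at 1.03, also short. Under oxygen limitation 1 of 9 rose and 0 fell, near the 8.04% called higher over all genes, with a median of -0.19. NDE2 rose by 1.75 (limma adjusted p = 0.0181), from the floor on aerobic glucose. The cytosolic aspartate aminotransferase gene AAT2 was lowest at -0.99. In the petite comparison 0 of 9 passed, with NDE2 at 1.37 and the mitochondrial malate dehydrogenase gene MDH1 at -1.57 as the ends.

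The high osmolarity glycerol (HOG) kinase pathway controls GPD1 and GPP2 in osmotic stress. Of its 26 genes 0 passed on xylose, with a median of 0.03, from the sensor gene SHO1 at -0.62 to the stress activator gene MSN4 at 0.76. Under oxygen limitation 3 rose, the transcription factor gene SMP1 at 1.07, the kinase gene SSK22 at 0.87 and HOT1, an activator of GPD1, at 0.73. As many fell, the tyrosine phosphatase gene PTP3 at -1.04, the GTPase gene CDC42 at -1.01 and the phosphorelay gene YPD1 at -0.93. The limma adjusted p of these 6 ran from 0.0236 for PTP3 to 0.0461 for HOT1, each with 1 sign in 2 of 2 pairs, and PTP3 lay at the floor on both oxygen-limited arrays. The median was 0.10. These counts, 3 of 26 each way, lie near the shares over all genes, 8.04% higher and 15.9% lower. In the petite comparison 0 of 26 passed.

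Other targets of osmotic stress had higher medians than the glycerol genes but no member that passed. On xylose the 10 tested genes had a median of 1.70, from GRE2 at -0.15 to the membrane protein gene HSP12 at 3.25 (limma adjusted p = 0.0526). Medians were 0.65 under oxygen limitation and 0.80 in the petite mutant. These genes also answer to other stresses, and 5 of them lay at the floor on aerobic glucose. Of 9 tested regulators of GUT1 and GUT2, 1 rose on xylose, with a median of 0.39. It was ADR1, an activator of both in the absence of glucose, at 1.89 (adjusted p = 0.0286 in limma, positive in 3 of 3 pairs). On glucose ADR1 lay at the floor in aerobic and oxygen-limited cells and read 72.2 in the petite mutant, so the floor enters its estimate. CAT8, an activator of gluconeogenic genes, lay at the floor on all 3 glucose arrays and at 119 to 197 on xylose (1.31, limma adjusted p = 0.0639). SNF4, the activating subunit of the Snf1 kinase, was the lowest on xylose, at -0.10, and fell by 0.65 under oxygen limitation (limma adjusted p = 0.0496).

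**Figure D5:**
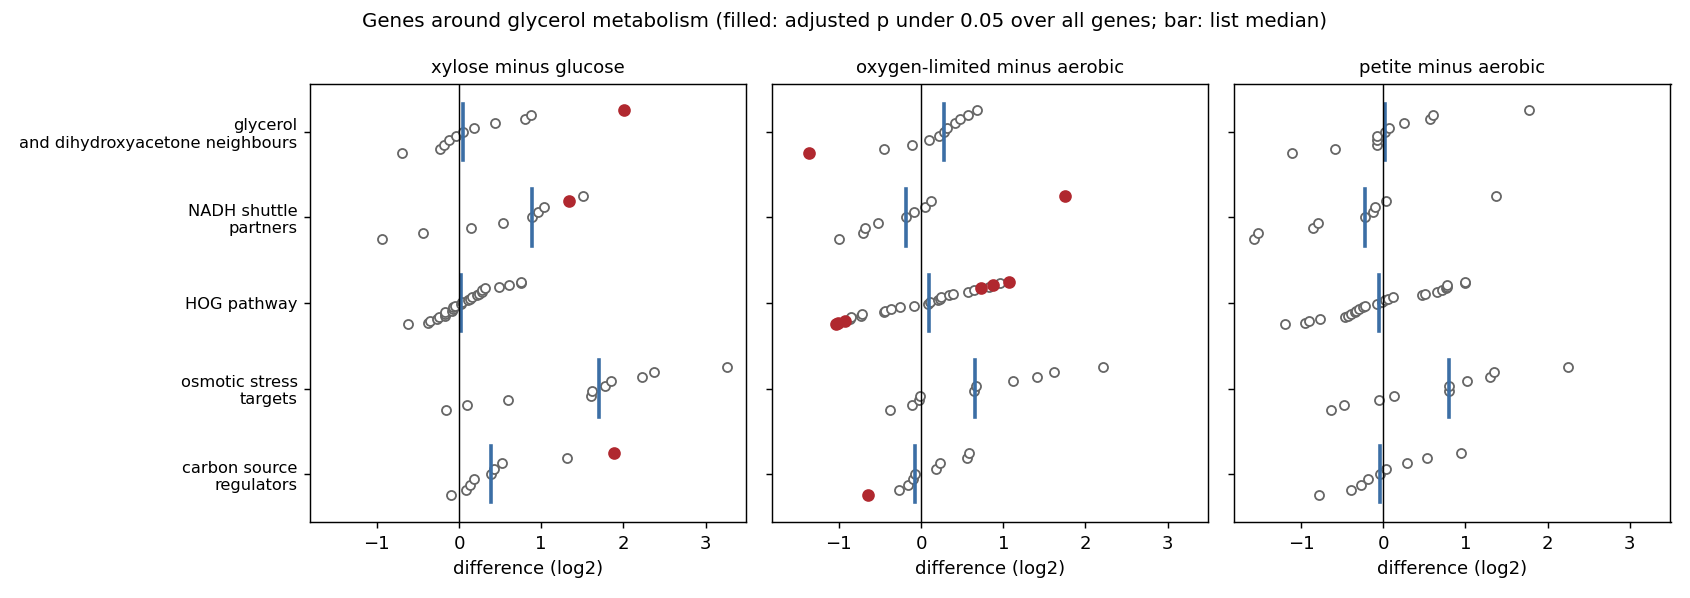
Fitted log2 difference of each tested gene in 5 lists around glycerol metabolism for the sugar, oxygen and petite comparisons, with filled points where the limma adjusted p over all genes was under 0.05 and bars at list medians. Of 65 genes 3 are filled on xylose, all higher (0.677% of all genes), 9 under oxygen limitation, 4 higher and 5 lower (8.04% and 15.9% of all genes), and 0 in the petite mutant (0.0183% each way), and the osmotic stress targets have a median of 1.70 on xylose.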

How the data were processed

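RNA from 6 cultures was hybridised to 6 Affymetrix yeast arrays, 1 per condition. The values used are linear intensity values as deposited by the authors in the series' value table. No source used here names the software or scaling that produced them. Of 9335 probe sets, 60 were controls and 1 had no value, and 6504 of the other 9274 had a single gene name in the platform annotation, 328 several and 2442 none. All 6504 matched the RefSeq gene table, which was used for names. Its gene type, locus tag and chromosome also served to choose the named nuclear genes whose profiles were compared. Several probe sets for 1 gene (315 genes) were reduced to the one with the highest mean, giving 5656 genes.

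Each array was scaled to the mean of the array medians, floored at the 25th percentile of all values (61.7) and put on the log2 scale. Genes above the floor on at least 1 array (5462) were fitted in limma 3.58.1 under R 4.3.3 with background and sugar as terms, without an interaction. P-values were adjusted by Benjamini-Hochberg over these genes with a threshold of 0.05. With 2 residual degrees of freedom, each gene's SD was moderated toward a prior SD of 0.22 (prior degrees of freedom 3.27). A pair difference of at least 2-fold was counted where at least 1 array of the pair exceeded the floor. Precision is limited by the number of arrays.

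The fit was tested on simulated data of 5462 genes with normal noise and an equal effect in every background or sugar. The noise SD of each gene was drawn from the prior of the fit, so these data meet its assumptions. The shares below, that of false calls included, need not hold on the real arrays. Changes were placed only in genes whose mean lay more than 4-fold above the floor. GPD2, GUT1, FPS1 and STL1 lie below that level, so the shares do not cover them. Fewer genes were changed than passed for oxygen on the real arrays. For sugar, 44.4% of the genes changed 2-fold and 94.2% of those changed 4-fold were found, with 4.76% of calls false. For oxygen, these shares were 7%, 77.6% and 4.72%. Alternatives were no scaling, quantile normalization, other floors, no filter, the mean over probe sets, removal of the trend along probe set numbers, a variance trend, and leaving out arrays. All 10 members are named, and further genes are those of the lists that were called or had the highest or lowest estimate, with a few chosen after their values were seen (NDE1, DAK2, CAT8). Members and lists were chosen with earlier results of these data known. No sequences or coordinates are given, as no genome of a stated build was used here.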

Additional observations from a re-analysis of the deposited data

How the results depend on the processing

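With 1 array per condition, the limits are the lack of repeated cultures and 2 residual degrees of freedom, and STL1 is limited by signal near the floor. The sugars were compared within backgrounds, since background is a term of the fit, and the labels carry no replicate numbers that could pair arrays further. The cause of the shifts below was not tested except where stated. Other floors, no filter, the mean over probe sets and a variance trend left the estimates of GUT2 on xylose and GPD2 under oxygen limitation unchanged. Those alternatives could move a call of these genes but not its direction. For the oxygen comparison, leaving out either petite array gives the same fit, yet each counts as an alternative. The same holds for the petite comparison and either oxygen-limited array. GUT2 on xylose kept its direction under all 11 alternatives (2.04 to 2.51, limma adjusted p 0.0145 to 0.221) and its call in 7. GPD2 under oxygen limitation kept its direction under 14 (-1.15 to -0.65, limma adjusted p 0.0198 to 0.149) and its call in 9.

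Without scaling, glycerol genes called under oxygen limitation were 1 higher (GPD1) and 0 lower, and 199 genes were called in the petite comparison. All genes then split into 1032 higher and 430 lower under oxygen limitation (439 and 868 with scaling) and into 168 and 31 in the petite comparison (1 and 1), the medians of all genes shifting by 0.29 and 0.22. Signs that turned were STL1 on xylose (-0.0022), GPP2 (0.27) and STL1 (0.075) under oxygen limitation, and GUT1 (0.18), GUT2 (0.034), FPS1 (0.25) and STL1 (0.078) in the petite mutant. Quantile normalization gave 23 genes on xylose, 0 in the petite comparison (1579 at an unadjusted limma p under 0.05) and 1 glycerol gene higher under oxygen limitation (GPD1), with 432 higher and 558 lower over all genes. GPP2 under oxygen limitation turned to 0.26 and FPS1 in the petite mutant to 0.037.

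A floor at the 10th percentile gave 98 genes on xylose with 2 glycerol genes higher (GUT1 added), and 559 in the petite comparison with 1 glycerol gene lower (GPD2). STL1 turned to 0.35 under oxygen limitation and 0.43 in the petite mutant. A floor at the 40th percentile gave 0 on xylose (971 unadjusted), hence 0 glycerol genes higher, 840 under oxygen limitation and 0 in the petite comparison (1619 unadjusted). No filter, which adds genes with no spread to the fit, gave 0 (1032 unadjusted), 0 glycerol genes, 696 and 0 (1794 unadjusted). The mean over probe sets gave 24 on xylose and 0 in the petite comparison (1849 unadjusted). With the probe set number trend removed, 73 genes were called on xylose, with 2 glycerol genes higher (GUT1 added) and 1 lower (GPP1), split 60 to 13. In the petite comparison it was 531, split 227 to 304, with 1 glycerol gene lower (GPD2). A variance trend in limma gave 363 there.

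Leaving out 1 pair gave 49 genes on xylose without the aerobic pair, 12 without the petite pair and 0 without the oxygen-limited pair. Glycerol genes higher were 0 to 2 (AQY3 added without the aerobic pair, GUT2 lost without either other pair). FPS1 ran from -0.23 to 0.23, STL1 from -0.037 to 0.061 and DAK1 from -0.35 to 0.0044. Arrays were also left out 1 at a time. Leaving out a petite array gave 1142 genes under oxygen limitation, with 1 glycerol gene lower. Leaving out an oxygen-limited array gave 1 gene in the petite comparison. Leaving out an array of the comparison itself left 1 array in a group, and all calls were then lost. Under oxygen limitation GPP2 ran from -0.58 to 0.41, GUT1 from -0.12 to 0.74, STL1 from -0.14 to 0.019 and DAK1 from -0.16 to 0.35. In the petite comparison GUT1 ran from -0.33 to 0.13, GUT2 from -0.64 to 0.15, FPS1 from -0.44 to 0.37 and STL1 from -0.10 to 0.056.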
